A study of Homo sapiens with 6 samples.

Results

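The transcripts of the hnRNP A/B and hnRNP D family were followed across AGO2 immunoprecipitates and flow-through fractions of breast cancer cells. Of the 60708 genes in the count tables, 9 were taken. They are the 7 parent genes HNRNPA0, HNRNPA1, HNRNPA2B1, HNRNPA3, HNRNPAB, HNRNPD and HNRNPDL, and HNRNPA1L3 and HNRNPA1P7, which are near-identical copies of HNRNPA1. They were picked by name because several of them had higher counts in the AGO2 immunoprecipitate of mimic-transfected cells, so every value of theirs in that comparison is given as a description, without a test.

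The libraries came from MDA-MB-231, an established human triple-negative breast cancer cell line. Cells were transfected with a miR-99b-5p mimic or with a scrambled control oligonucleotide, both at 25 nM, and harvested after 18 hours. AGO2, the Argonaute protein that carries microRNAs to their target transcripts, was pulled down from the lysate (AGO2-IP), and the RNA left behind was the flow-through. The mimic arm held 2 biological replicates, each with 1 AGO2-IP and 1 flow-through library, and the control arm held 1 AGO2-IP and 1 flow-through library. All groups thus shared the cell line, the transfection and the antibody, libraries from IgG pull-downs were not analysed here, and with 1 library per control fraction no comparison with the control has a replicate check. A supplementary list of the study gives the control libraries as replicates without a fraction, so the fractions in the sample labels were used.

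hnRNP A/B and D proteins are abundant nuclear RNA-binding proteins that carry a pair of RNA recognition motifs and coat newly made transcripts. HNRNPA1 and HNRNPA2B1 repress or activate splice sites and have also been linked to microRNA processing, while HNRNPD (AUF1) binds AU-rich elements and controls mRNA decay. Like many highly expressed housekeeping transcripts, HNRNPA1 mRNA has been reverse transcribed back into the genome many times, which left numerous processed copies.

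The mature miR-99b-5p sequence, from RefSeq, is shown because it is the transfected agent. It is 22 nucleotides long, lies on the plus strand of chromosome 19 (chr19:51692618-51692639, GRCh38.p14), and its seed, bases 2 to 8, is in capitals.
hsa-miR-99b-5p: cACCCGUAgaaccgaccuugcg
A transcript that pairs with bases 2 to 7 of this seed holds ACGGGT. Among the reference transcripts of the 9 genes, this hexamer occurred in 1. It lay there once, in the 3′ untranslated region of HNRNPDL (bases 3353 to 3358 of ENST00000295470.10). The 30 bases around it are shown with the hexamer in capitals.
HNRNPDL: tgatctcacacaACGGGTgatctcacaaaa
Neither flanking base extended the match to a longer seed site. Over the 11747 tested protein-coding genes, 17.1% of the reference transcripts held ACGGGT, and among the 1384 within 10% of the length of the HNRNPDL transcript the share was 18.4%. Only the letters of the seed match were searched, on the transcript strand, in 1 reference transcript per gene. Other isoforms were not searched, and the HNRNPA2B1 transcript has 3628 bases where the gene has 12613 annotated exonic bases.

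Within the coding sequence, spliced HNRNPA1 RNA and its copies can be told apart only through the bases at which they differ. The 1924-base HNRNPA1L3 transcript also has 609 and 352 untranslated bases, which were not part of this comparison. Positions are counted from 1 at the start codon of a 963-base HNRNPA1 coding sequence (ENST00000546500.5). Of the annotated HNRNPA1 isoforms, this one was chosen because it is closest to HNRNPA1L3. The coding sequence of the HNRNPA1 reference transcript (ENST00000340913.11) has 1119 bases. Along all 963 bases HNRNPA1L3 differed from HNRNPA1 at 6 positions (99.4% identity) and HNRNPA1P7 at 9 positions (99.1% identity). The copies differed from each other at 13 positions. The first 652 bases of HNRNPA1P7 were the same as in HNRNPA1, and the longest run shared by HNRNPA1L3 was 373 bases.

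**Figure D1:**
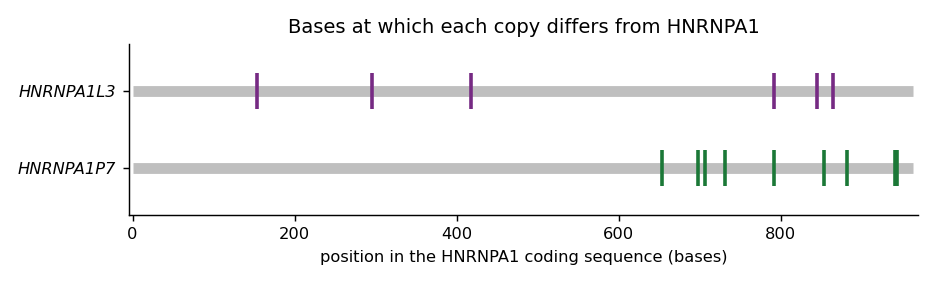
Positions at which HNRNPA1L3 (6 ticks) and HNRNPA1P7 (9 ticks) differ from HNRNPA1, along the 963 bases of the HNRNPA1 coding sequence on the horizontal axis. The HNRNPA1P7 ticks all lie in the last part of the sequence, while those of HNRNPA1L3 are spread along it.

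The libraries were unequal. Counts on genes ran from 38022779 to 48544756 in the mimic libraries and were 8076375 and 7772149 in the control AGO2-IP and flow-through. Pairs with several mapping places came to 76.7% and 73.7% in the controls and to 2.38% to 19.2% in the mimic libraries, and mitochondrial genes took 3.48% and 43.4% of the gene counts, against 0.0116% to 0.125%. The mimic flow-through replicates differed by an SD of 1.44 in log2 across 13078 genes, against 0.840 for the AGO2-IP replicates. Levels are given below as CPM, the counts of a gene scaled to a common total of gene counts per library. Mesenchymal markers of MDA-MB-231 were found in every library, with VIM at 129 to 594 CPM, CD44 at 59.0 to 478 CPM, CAV1 at 107 to 791 CPM and AXL at 520 to 2729 CPM. Of the receptor genes ESR1 and PGR stayed below 1 CPM and ERBB2 lay at 37.7 to 172 CPM. Of the epithelial markers KRT18 had 79.4 to 428 CPM, EPCAM 2.80 to 11.8 CPM and CDH1 0.128 to 3.96 CPM. The 3 blood markers summed to 0.395 to 2.23 CPM, and the 3 of stroma and endothelium to 6.56 to 46.5 CPM, mostly COL1A1 (4.63 to 44.1 CPM).

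Together the 9 genes made up 1.75% and 2.04% of the gene counts in the AGO2-IP libraries of mimic cells and 0.221% and 0.139% in their flow-through libraries. In control cells they made up 0.458% of the AGO2-IP and 0.127% of the flow-through. Counts in bulk RNA are shares of a library, in which more cells with a transcript and more transcript per cell cannot be told apart. HNRNPA1 alone held 42.8%, 43.0% and 50.6% of the family's counts in the 3 AGO2-IP libraries, against 27.1% to 28.5% in the 3 flow-through libraries.

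HNRNPA1 (chr12:54280193-54287088, plus strand) is the founding member of the family and a splicing repressor. Its counts were 349493 and 333706 in the AGO2-IP of mimic cells and 28918 and 18279 in their flow-through, and 18726 and 2822 in the control AGO2-IP and flow-through. In CPM this was 8127 ± 919 in the AGO2-IP of mimic cells and 496 ± 169 in their flow-through (SD, n = 2 each), and 2319 and 363 in the controls. The mimic AGO2-IP values lay far above all others, the control AGO2-IP came next, and the control flow-through lay just under the lower mimic flow-through library.

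HNRNPA2B1 (chr7:26171151-26201529, minus strand) is the closest partner of HNRNPA1 in abundance and function. It had 159097 and 169724 counts in the AGO2-IP of mimic cells, 25654 and 15706 in the mimic flow-through, and 2419 and 2423 in the control AGO2-IP and flow-through. In CPM the mimic AGO2-IP stood at 3404 and 4464, while the other 4 libraries lay together between 299.5 and 546. By these unstranded counts the control pair, at 299.5 and 312, thus showed no excess of HNRNPA2B1 in its AGO2-IP. Its counts on the separate strands summed to 24.97% more in the control AGO2-IP and 9.57% more in the control flow-through. They were 1751 and 1551 by strand column 3 and 1272 and 1104 by strand column 4, so the order of the control fractions was not settled.

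HNRNPA3 (chr2:177212694-177223959, plus strand), a shuttling relative of HNRNPA2B1, had 60023 and 110135 counts in the AGO2-IP of mimic cells, 11530 and 4468 in the mimic flow-through, and 3430 and 1054 in the control fractions. Its replicates were the farthest apart of the parent genes in the AGO2-IP, at 1284 and 2897 CPM, yet both were above the 245 and 92.04 of the flow-through. HNRNPA0 (chr5:137745651-137754363, minus strand), a single-exon gene whose protein binds AU-rich mRNAs, had 49027 and 23062, 9783 and 11265, and 4938 and 614 counts in the same order. For HNRNPA0 the control AGO2-IP, at 611 CPM, lay level with the lower mimic AGO2-IP library, at 607.

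HNRNPAB (chr5:178204533-178211163, plus strand) encodes a protein that binds both single-stranded DNA and RNA. Its counts were 88057 and 57754 in the AGO2-IP of mimic cells, 9248 and 12076 in their flow-through, and 4794 and 1043 in the control AGO2-IP and flow-through. With 594 CPM, the control AGO2-IP lay between the mimic AGO2-IP (1884 and 1519) and the flow-through libraries (134 to 249).

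HNRNPD and HNRNPDL are neighbours on the minus strand of chromosome 4 (chr4:82352498-82374503 and chr4:82422565-82430462) and encode related proteins, of which HNRNPD is the AU-rich element binding factor AUF1. HNRNPD had 65207 and 58012 counts in the AGO2-IP of mimic cells, 9887 and 3419 in the mimic flow-through, and 1501 and 1279 in the controls. HNRNPDL had 39133 and 18388, 8256 and 2023, and 956 and 628 counts in the same order. In CPM, both control fractions of HNRNPD (186 and 165) fell between its mimic flow-through replicates (210 and 70.4), and so did both of HNRNPDL (118 and 80.8, between 176 and 41.7).

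Per kilobase of the reference transcript, the order of levels in the mimic AGO2-IP was headed by HNRNPA1, at 1997 and 2344 CPM per kilobase. HNRNPA2B1 (938 and 1230) and HNRNPAB (1064 and 858) followed and overlapped, and HNRNPD (455 and 497) and HNRNPA3 (225 and 507) overlapped below them. HNRNPDL (191 and 111) and HNRNPA0 (120 and 69.6) overlapped too, and the copies came last, HNRNPA1L3 at 46.3 and 43.7 and HNRNPA1P7 at 37.97 and 40.3. In the mimic flow-through the leading level per kilobase was that of HNRNPA1 in replicate 1 (164) and that of HNRNPAB in replicate 2 (141, with HNRNPA1 at 101). The order below HNRNPA1 depended on the length used. Per kilobase of all annotated exonic bases, HNRNPAB (889 and 717) stood above HNRNPA2B1 (270 and 354) in the mimic AGO2-IP. On that scale HNRNPAB led in both mimic flow-through libraries, at 92.9 and 117, with HNRNPA1 at 91.9 and 56.2.

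**Figure D2:**
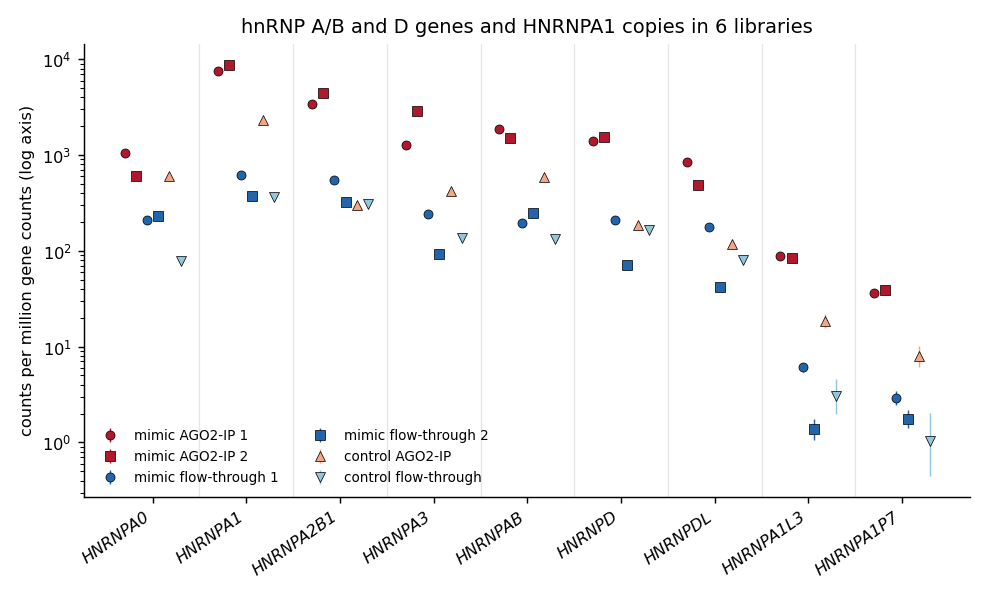
CPM (counts scaled to a common library total, log axis) of the 9 genes in the 6 libraries, with exact 95% binomial intervals that cover counting error only and are mostly smaller than the symbols. Both mimic AGO2-IP values (red) lie above both mimic flow-through values (blue) for each gene, while the control fractions of HNRNPA2B1, HNRNPD and HNRNPDL lie close together.

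In mimic-transfected cells all 9 genes had higher normalised counts in both AGO2-IP libraries than in both flow-through libraries, an arrangement seen for 28.1% of the 13078 genes tested. Their log2 fold changes ran from 1.83 for HNRNPA0 to 4.64 for HNRNPA1L3, with a median of 3.45 against -0.11 over all genes. The pairwise differences between libraries ran from 1.13 to 2.51 for HNRNPA0 and from 4.02 to 5.66 for HNRNPA1L3. HNRNPA1 stood at 4.04 (pairwise 3.78 to 4.29), HNRNPA3 at 3.70 (2.57 to 4.72), HNRNPD at 3.45 (2.91 to 4.18) and HNRNPA2B1 at 3.19 (2.82 to 3.53). A log2 fold change of at least 1 was reached by 9 of the 9 and by 20% of all genes. As the genes were picked from this contrast, these figures describe the choice and are no evidence about the family.

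Over all 13078 genes, edgeR's quasi-likelihood test called 32 (0.245%) higher and 54 (0.413%) lower in the mimic AGO2-IP, where a call needed a log2 change of 1 or more in either direction with a Benjamini-Hochberg adjusted p up to 0.05. With the replicate number as a block 4.6% of all genes were called higher and 5.08% lower. The split of 32 higher and 54 lower became 13 and 33 with DESeq2 size factors and 9 and 35 with library size alone. The calls of the 9 genes themselves are not given, as they were picked from this comparison. The pairwise log2 differences between AGO2-IP and flow-through libraries ran from 2.82 to 3.53 for HNRNPA2B1 and from 2.36 to 3.44 for HNRNPAB.

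The replicates differed in how far apart their fractions lay. Within replicate 1 the log2 difference of AGO2-IP over flow-through was 3.78 for HNRNPA1, 2.57 for HNRNPA3, 2.91 for HNRNPD and 2.51 for HNRNPA0, and within replicate 2 it was 4.29, 4.72, 4.18 and 1.13. HNRNPA0 and HNRNPAB (3.44 and 2.36) were the only 2 of the 9 with the smaller difference in replicate 2. They were also the only 2 whose flow-through level was higher in replicate 2, by 0.65 and 0.83 in log2, while for the other 7 the difference was -0.21 to -1.62.

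The difference between the flow-through replicates followed GC content. Over the tested genes it correlated with exonic GC content at a Spearman's rho of 0.717 (across genes, which are not independent replicates), and that of the AGO2-IP replicates did not (rho -0.0015). The exons of 7 of the 9 genes are AT-rich, from 38.1% GC in HNRNPA3 to 43.6% in HNRNPA1L3, with HNRNPA1P7 at 47.4% and HNRNPAB at 54.5%, against a median of 47.5% over the 11747 tested protein-coding genes. Genes between 38% and 44% GC had a median flow-through difference of -0.98 (replicate 2 minus 1) and a median log2 fold change of 0.61 between fractions, while genes between 54% and 55% GC had 0.81 and -0.72. With each library's trend on GC removed, the log2 fold change was 0.90 for HNRNPA0, 3.36 for HNRNPA1, 2.33 for HNRNPA2B1 and 3.43 for HNRNPAB. The remaining 5 lay between 2.25 and 4.23, so 8 of the 9 kept a log2 fold change of at least 1.

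**Figure D3:**
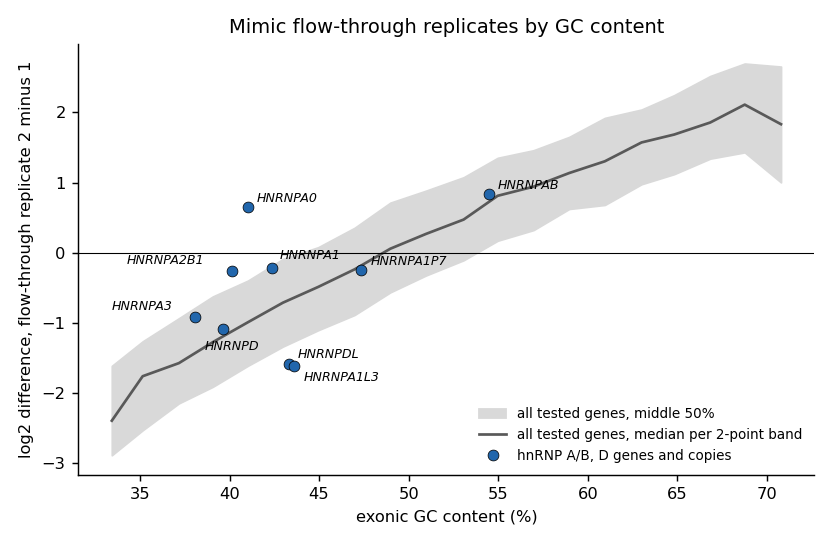
Log2 difference between the mimic flow-through replicates (replicate 2 minus 1) against exonic GC content in percent. The grey line is the median and the band the middle 50% of the tested genes in steps of 2 points, and the blue points are the 9 genes, of which HNRNPA0 and HNRNPA2B1 lie above the band, HNRNPDL and HNRNPA1L3 below it, and HNRNPAB near the line at 0.83.

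The control pair shares no library with the contrast from which the genes were picked. Without the mimic, HNRNPA0 had a log2 ratio of AGO2-IP over flow-through of 2.06, HNRNPA1 of 1.78 and HNRNPAB of 1.25, while HNRNPA3 stood at 0.75, HNRNPDL at -0.34, HNRNPD at -0.72 and HNRNPA2B1 at -0.95. Thus 3 of the 7 parent genes reached a log2 ratio of 1, where 15.9% of 8245 genes did, and none had one of at most -1, where 18.1% did. Their median was 0.75 against 0.01 over all genes. The copies had too few control counts for this ratio.

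These ratios depended on the scaling, which moved the median of all genes from 0.01 with TMM to 0.89 with library size alone. On the latter scale 46.1% of all genes reached a log2 ratio of 1 (3802, against 417 at most -1, where TMM gave 1315 and 1493). There HNRNPA0 had 2.95, HNRNPA1 2.67, HNRNPAB 2.14 and HNRNPA3 1.65, and HNRNPDL, HNRNPD and HNRNPA2B1 had 0.55, 0.18 and -0.06, each below the median of all genes. In either scaling HNRNPA0, HNRNPA1, HNRNPAB and HNRNPA3 stood above the median of all genes, and HNRNPA2B1, HNRNPD and HNRNPDL below it. Each ratio rests on 1 library per fraction, of which the flow-through held 43.4% mitochondrial counts. The part of these libraries' makeup in the ratios was not tested.

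**Figure D4:**
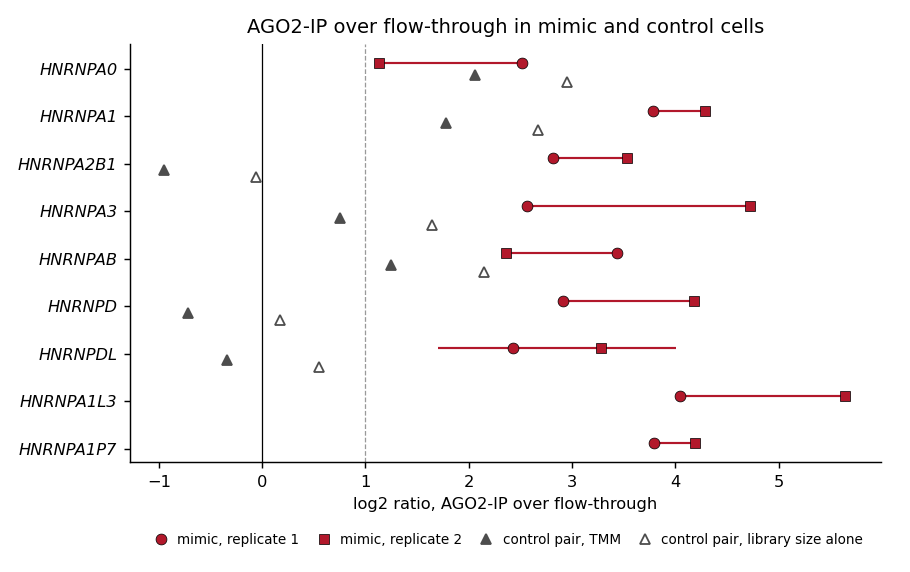
Log2 ratio of AGO2-IP over flow-through for the 9 genes. Red symbols are the mimic replicates with a line over all pairwise library differences, filled triangles the control pair with TMM scaling and open triangles the same pair by library size alone, and the dashed line marks a log2 ratio of 1. For HNRNPA0 the control ratio of 2.06 lies within the mimic range of 1.13 to 2.51, and for the other 6 parent genes it lies below the mimic range with TMM scaling.

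Setting mimic beside control within each fraction used the same mimic libraries again. In the AGO2-IP the log2 ratio of mimic over control was 3.84 for HNRNPA2B1 (3.61 and 4.06 for the replicates), 3.11 for HNRNPD, 2.56 for HNRNPDL and 2.32 for HNRNPA3. It was 1.94 for HNRNPA1, 1.64 for HNRNPAB and 0.52 for HNRNPA0 (0.88 and 0.15), and with the GC trend removed that of HNRNPA0 was -0.09. Of the 9 genes 8 had a ratio of at least 1, where 17.3% of 11467 genes did. None was at -1 or under, where 17.4% were. The genes were picked with high counts in these same mimic AGO2-IP libraries known, so these figures are no evidence about the family.

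In the flow-through the same ratios were small. They ran from -0.90 for HNRNPD to 1.01 for HNRNPA0, with HNRNPA1 at -0.06 and HNRNPA2B1 at -0.04, and a median of -0.06 against 0.05 over all genes. Only HNRNPA0 had a ratio of at least 1, where 10% of 12254 genes did, and it had 0.67 and 1.34 in the replicates, and 0.94 with DESeq2 size factors. No member had -1 or less, where 10.2% of all genes did, but HNRNPD had -1.04 by column 4 counts. Against mimic replicate 2 alone, HNRNPD (-1.43), HNRNPA1L3 (-1.34) and HNRNPDL (-1.16) were at -1 or less. The ratios of the copies rest on few counts, as the control flow-through held 24 of HNRNPA1L3 and 8 of HNRNPA1P7. By library size alone the median of all genes was 0.52, and the split of 1228 higher and 1256 lower genes became 3180 and 510.

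HNRNPA1L3 is annotated as a protein-coding gene on chromosome 16 (chr16:51553436-51647132, plus strand), and HNRNPA1P7 is a processed pseudogene of 963 bases on chromosome 18 (chr18:32412214-32413176, minus strand) inside GAREM1. HNRNPA1L3 had 4161 and 3199 counts in the AGO2-IP of mimic cells, 285 and 67 in the mimic flow-through, and 149 and 24 in the control AGO2-IP and flow-through. HNRNPA1P7 had 1709 and 1477, 138 and 85, and 64 and 8 counts. In CPM both followed the order of HNRNPA1 across fractions, high in the mimic AGO2-IP, lower in the control AGO2-IP and lowest in the flow-through libraries.

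As a share of the HNRNPA1 counts of the same library, HNRNPA1P7 lay within a narrow range in mimic cells by the unstranded counts. It came to 0.489% (exact 95% binomial interval 0.466 to 0.513) and 0.443% (0.420 to 0.466) in the AGO2-IP and to 0.477% (0.401 to 0.564) and 0.465% (0.371 to 0.575) in the flow-through. The control AGO2-IP had 0.342% (0.263 to 0.437) and the control flow-through 0.283% (0.122 to 0.559). The interval of the control AGO2-IP lay below that of mimic AGO2-IP replicate 1 and overlapped that of replicate 2. The range was wider by strand. Column 3 gave 0.598% and 0.515% in the AGO2-IP of mimic cells and 0.533% and 0.364% in their flow-through. Column 4 gave 0.343% and 0.349%, and 0.401% and 0.618%. Flow-through replicate 2 was thus the lowest mimic library by column 3 and the highest by column 4. The control AGO2-IP had 0.352% by column 3 and 0.328% by column 4, the latter close to both mimic AGO2-IP libraries. The control flow-through had 0.444% and 0.0804%.

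HNRNPA1L3 came to 1.19% (1.15 to 1.23) and 0.959% (0.926 to 0.993) of HNRNPA1 in the AGO2-IP of mimic cells, 0.986% (0.874 to 1.11) and 0.367% (0.284 to 0.466) in their flow-through, and 0.796% (0.673 to 0.935) and 0.850% (0.544 to 1.27) in the control AGO2-IP and flow-through. The second mimic flow-through library stood apart from the 5 others, whose shares lay between 0.796% and 1.19%. These intervals cover counting error only. For HNRNPA1 the log2 fold change between fractions in mimic cells was 4.04, for HNRNPA1P7 4.01 and for HNRNPA1L3 4.64, or 4.01 for the last without flow-through replicate 2.

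**Figure D5:**
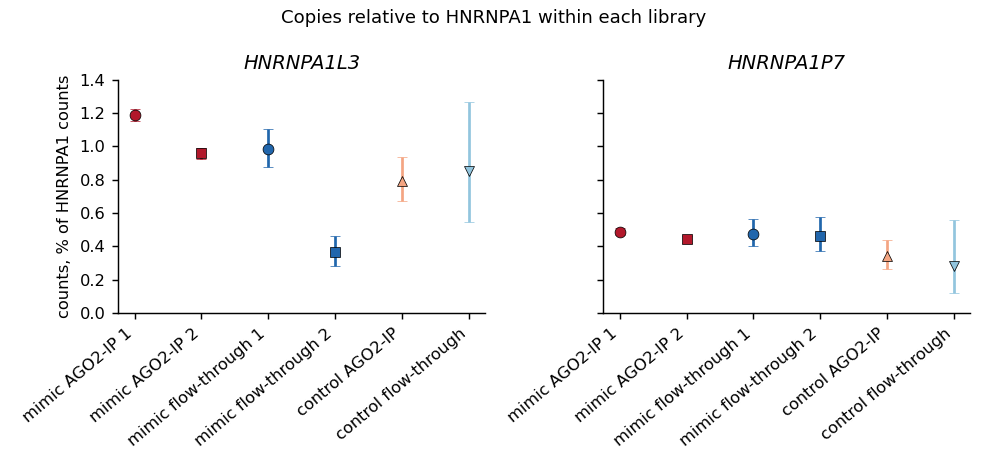
Counts of HNRNPA1L3 (left) and HNRNPA1P7 (right) as a percent of the HNRNPA1 counts of the same library, with exact 95% binomial intervals for counting error. HNRNPA1P7 lies between 0.283% and 0.489% in all 6 libraries, and HNRNPA1L3 between 0.796% and 1.19% in all but the second mimic flow-through library (0.367%).

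The tables count a read pair only where it maps to 1 place, so the sequence shared with copies sets which part of each gene can be counted. Of the 3595 windows of 150 bases along the HNRNPA1 reference transcript, 1035 (28.8%) had an exact match elsewhere in the genome. Along HNRNPA1P7 503 of 814 windows (61.8%) matched the genome elsewhere or another hnRNP transcript, and along HNRNPA1L3 376 of 1775 (21.2%). HNRNPA3 had such matches in 11.3% of its windows, and HNRNPA0, HNRNPA2B1, HNRNPAB, HNRNPD and HNRNPDL had none. Pairs that were given to a copy by a few differing bases cannot be told apart from HNRNPA1 pairs with sequencing errors or unlisted variants at those bases, and counts of the copies are uncertain to that extent.

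HNRNPA1L3 and HNRNPA1P7 belong to 99 annotated copies of these parent genes, most of them of HNRNPA1 (74 besides these 2). Only 5 of the other 97 had at least 200 counts over the mimic libraries, and 9 had no count in any library. HNRNPA1P10 had 823 and 526 counts in the AGO2-IP of mimic cells, 83 and 54 in the mimic flow-through and 63 and 10 in the controls. HNRNPA1P12 had 184, 272, 31, 62, 36 and 4 counts in the same order, and HNRNPA1P4 190, 168, 8, 23, 21 and 4.

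The copies HNRNPA3P6 (204 and 634 in the AGO2-IP of mimic cells, 44 and 45 in their flow-through) and HNRNPA3P5 (141 and 301, 36 and 36) had more counts in AGO2-IP replicate 2 than in replicate 1, as HNRNPA3 itself did. Summed over the other 74 HNRNPA1 copies, the share of HNRNPA1 counts was 0.431% and 0.366% in the AGO2-IP of mimic cells and 0.913% and 2.697% in their flow-through, with 1.26% and 2.98% in the controls. Among the mimic libraries this share was highest in flow-through replicate 2, where the share of HNRNPA1L3 was lowest.

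Overlap with other genes touched some of the counts. HNRNPAB shares 196 exonic bases with PHYKPL on the opposite strand, and its counts on the separate strands summed to 21.3% and 20.7% more than its unstranded count in the AGO2-IP of mimic cells, to 17.1% and 0.853% more in their flow-through, and to 9.09% and 8.25% more in the controls. HNRNPA2B1 overlaps NFE2L3 and CBX3 on the opposite strand, with an excess of 24.97% in the control AGO2-IP, 9.57% in the control flow-through and 0.384% to 3.48% in the mimic libraries. For the other 7 genes the excess was at most 0.790% in any library, HNRNPA3 included, although 53.7% of its annotated exonic bases overlap NFE2L2. The parent genes split between the strand columns at 43.3% to 61.8% in column 3, so neither strand column followed the coding strand.

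Other RNA-binding protein genes were read for context, from lists of 20 further hnRNP genes, 4 relatives with a similar pair of RNA recognition motifs, 7 AU-rich element binding proteins, the import receptors TNPO1 and TNPO2, and the SR proteins SRSF1 and SRSF2. Of the 35 genes 34 were tested, and 3 were called higher and 0 lower by edgeR, where 0.245% and 0.413% of all genes were. With the replicate block 11 were called higher and 1 lower (4.6% and 5.08% of all genes). PyDESeq2 called 13 higher and 2 lower, where it called 843 and 1080 of all 13078 genes. Of the 34 genes 19 had an unadjusted edgeR p under 0.05, where 3107 of the 13078 did. The median log2 fold change of the 34 was 1.15, and that of the 20 hnRNP genes 1.70. It was 3.45 for the 9 picked genes and -0.11 for all genes.

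HNRNPH1, which binds G-runs near splice sites, rose from 14646 and 9698 counts in the mimic flow-through to 99054 and 103917 in the AGO2-IP, a log2 fold change of 3.25 (SE 0.614, edgeR adjusted p = 0.0490). TARDBP, a UG-binding splicing regulator, rose from 7970 and 3995 to 45256 and 60447 counts, a log2 fold change of 3.38 (SE 0.651, edgeR adjusted p = 0.0490). Both calls were lost with DESeq2 size factors, library size alone, filterByExpr, either strand column, protein-coding genes alone and without either AGO2-IP replicate (adjusted p from 0.0557 to 0.562). Both held in the other alternatives of the edgeR fit (adjusted p from 0.000188 to 0.0495). In the control pair TARDBP had a log2 ratio of 2.83 and HNRNPH1 of 0.30.

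PTBP1, which represses exons through pyrimidine tracts, was the lowest of the hnRNP list, with 4282 and 6579 counts in the AGO2-IP and 21517 and 32200 in the flow-through (log2 fold change -2.18, edgeR adjusted p = 0.103, or 0.0317 with the replicate block). MSI2, a translational regulator, was the lowest of the motif relatives at -0.14 (SE 1.21, edgeR adjusted p = 0.952). Its replicates lay far apart in both fractions, with 5400 and 289 counts in the AGO2-IP and 6893 and 270 in the flow-through. Among the AU-rich element binding proteins none was called, from ZFP36, a decay factor, at 1.99 (edgeR adjusted p = 0.127) to KHSRP, another decay factor, at -0.72 (edgeR adjusted p = 0.474).

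TNPO1, the import receptor of HNRNPA1, had a log2 fold change of 1.07 (edgeR adjusted p = 0.373), and its paralogue TNPO2 one of -1.30 (edgeR adjusted p = 0.213). SRSF1, which counters HNRNPA1 in the choice of splice sites, had 2.68 (edgeR adjusted p = 0.137, or 0.00286 with the replicate block). SRSF2 had 1.49 (edgeR adjusted p = 0.346, or 0.0459 with the block).

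Across the 6 libraries the 7 parent genes had similar but not equal profiles. Pearson's r of centred log2 CPM ran from 0.604 (HNRNPA0 with HNRNPD) to 0.965 (HNRNPD with HNRNPDL) over the 21 pairs, as a description over 6 libraries, 3 of each fraction, that differ in depth. HNRNPA0 was farthest from the mean profile of the parent genes, at a distance of 1.97 in log2, and HNRNPAB nearest, at 1.05. Among genes outside the family, 799 lay nearer to that mean profile than HNRNPA0 and 41 nearer than HNRNPAB. Of 8218 other genes, the 5 nearest to that mean profile were SRP54 (0.373), CCT6A (0.587), SERBP1 (0.613), ANAPC4 (0.629) and ALDH7A1 (0.648), with r from 0.981 to 0.994. SRP54, a subunit of the signal recognition particle, had 9921 and 8647 counts in the AGO2-IP of mimic cells, 1969 and 862 in the mimic flow-through, and 368 and 147 in the controls.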

How the data were processed

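RNA from AGO2-IP and flow-through fractions was converted to libraries with the MGIEasy RNA Library Prep Set and sequenced as pairs. The authors used FastQC 0.11.9 for read quality, cutadapt 3.5 for trimming and STAR 2.7.11b in 2-pass mode for alignment to GRCh38, and deposited counts of read pairs per gene, whole numbers without normalization. The annotation release is not given in the sources used here. Of 60708 identifiers 60463 were found in GENCODE 44, used for names, coordinates and sequences. Column 2 (unstranded) was used. Rows that name no gene held 21.4% to 95.0% of the pairs per library and were left out. Mapping to 1 place only lowers the counts of genes with copies.

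The mimic fractions were compared with edgeR 4.0.16 (R 4.3.3), quasi-likelihood F test after TMM, over genes whose counts summed to 200 or more, with calls at a log2 fold change of 1 or more in size and an adjusted p-value (Benjamini-Hochberg) up to 0.05. Library sizes were the summed gene counts. An SE is the size of the log2 fold change divided by the square root of the F statistic. Comparisons with 1 control library are log2 ratios of TMM-normalised CPM (prior count 2) without p-values. Alternatives were DESeq2 1.42.0 size factors, library size alone, PyDESeq2 0.5.4, other filters, each strand column, all 6 libraries in one fit, protein-coding genes, a prior count of 0.5, the replicate block, removal of each library's trend on exonic GC (lowess, span 0.2) and each mimic library left out. The edgeR and PyDESeq2 code was tested on simulated data.

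The fractions are paired by replicate number, because in the labels every mimic replicate has one library of each fraction and the flow-through is what its pull-down left behind. Libraries with the same number deviated from their group means together, with a correlation across genes of 0.324 (Pearson's r). The main edgeR fit, with its SE and adjusted p-values, left the pairing out. The fit with the replicate block used it. The study calls the replicates independent biological replicates. The 9 genes, the gene lists and the tests were chosen with earlier results of these data known. All 9 genes are named. From each list the called genes and the highest and lowest log2 fold change are named, except 1 item of the hnRNP list (this and 1 marker are not reported here), as are other copies with at least 200 mimic counts and the 5 genes nearest (Euclidean distance) to the mean centred profile of the parent genes. Coding sequences were aligned with Biopython 1.88.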

Additional observations from a re-analysis of the deposited data

Results flagged for a closer look

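Flagged were 10 of the genes described or listed here. For these genes each AGO2-IP library of mimic cells lay above each flow-through library in TMM-normalised CPM. Their log2 ratio in the control pair was negative. They came from the 7 parent genes and 31 listed genes that had a control ratio. Over all genes, 28.1% of 13078 had that arrangement of the mimic libraries, and the median control ratio was 0.01. The share of all genes with both was not counted, so the 10 are no evidence about these gene groups. The control ratio was -0.949 for HNRNPA2B1, -0.716 for HNRNPD and -0.341 for HNRNPDL. Among the other RNA-binding protein genes it was -1.93 for SYNCRIP, -0.996 for HNRNPC, -0.427 for SRSF2, -0.417 for RBMX, -0.311 for HNRNPH3, -0.280 for HNRNPF and -0.208 for HNRNPU. Of these 7, all but SRSF2 are named only for this pattern, after their values were seen. For SYNCRIP the order of the mimic libraries held only after TMM. Its replicate 1 had 3448 AGO2-IP and 3470 flow-through counts, of 46743572 and 46999258 gene counts. With library size alone HNRNPA2B1, HNRNPD and HNRNPDL had -0.06, 0.18 and 0.55, SYNCRIP had -1.05 and HNRNPC -0.10, and the remaining 5 had 0.46 to 0.68, where the median of all genes was 0.89. The difference between mimic and control cells was not tested, since each control fraction is 1 library, and HNRNPA2B1, HNRNPD and HNRNPDL were picked with high values in the mimic AGO2-IP known.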

How the results depend on the processing

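Depth and scaling limited the comparisons. All 9 genes kept a log2 fold change of at least 1 between the mimic fractions in each alternative that gave a value, except HNRNPA0 with the GC trend removed (0.90). No single gene's log2 value of at least 1 in size changed sign. Of 340 alternative values of single genes and copy shares, 60 moved by more than the spread between replicates or, without replicates, the counting interval. The causes of the changes below were not tested.

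Over all genes 32 were called higher and 54 lower in the mimic AGO2-IP. The counts became 13 and 33 with DESeq2 size factors, 9 and 35 with library size alone, 419 and 204 without a filter beyond 1 count, 17 and 30 with edgeR's filterByExpr, 1 and 17 with column 3, 2 and 12 with column 4, 351 and 244 with the GC trend removed, 0 and 0 over protein-coding genes alone (edgeR, 2873 of 11747 genes with an unadjusted p under 0.05), and 843 and 1080 with PyDESeq2. With the replicate block they were 601 and 664, and 1530 and 1344 with the block and the GC trend removed. Leaving out 1 library gave 2 to 2476 higher (2 without AGO2-IP replicate 2, 13 without AGO2-IP replicate 1, 2476 without flow-through replicate 1, 235 without flow-through replicate 2) and 20 to 2527 lower (20 and 22 without an AGO2-IP library, 2527 and 420 without flow-through replicate 1 or 2). The lone library was then assumed to vary like the pair.

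Of the 34 other RNA-binding protein genes 3 were called higher and 0 lower. The number higher became 1 with DESeq2 size factors, library size alone or filterByExpr, 10 without a filter, 0 with column 3, column 4 or protein-coding genes alone, 9 with the GC trend removed and 13 with PyDESeq2. With the replicate block it was 11, and 16 with the block and the GC trend removed. Leaving out 1 library gave 0 to 20 higher and 0 to 4 lower. The number lower became 1 with the replicate block, 2 with the block and the GC trend removed, and 2 with PyDESeq2.

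In the control pair 1315 genes reached a log2 ratio of 1 and 1493 one of -1, and library size alone gave 3802 and 417. In the AGO2-IP of mimic over control 1984 genes were at least at 1, and 1303 with the GC trend removed. In the flow-through of mimic over control 1228 and 1256 genes became 3180 and 510 with library size alone, and 2618 and 2572 against mimic replicate 2 alone.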
